A study of Mus musculus with 21 samples.

Results

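The gene expression response to a permanently active gp130 receptor was compared between splenic CD4+ and CD8+ T cells, using all 21 of the 21 RNA-sequencing libraries of the study. The mice were C57BL/6J animals at postnatal day 35. L-gp130 mice (L-gp130fl/+;CD4Cre+/-) carry an L-gp130 allele that Cre switches on and a Cre transgene under Cd4 control, and control mice (CD4Cre+/-) carry the same Cre transgene without the L-gp130 allele. L-gp130 mice gave 6 CD4+ and 3 CD8+ libraries and control mice 6 of each lineage, each library with a mouse number in its label. Labelled male were control CD4 replicate 1, L-gp130 CD4 replicates 1, 3, 4 and 5, control CD8 replicates 1, 2, 4 and 5 and L-gp130 CD8 replicates 1 and 2. All other libraries were labelled female, so sex went partly with genotype in CD4+ cells. The method of selection went with lineage: magnetic beads directed at CD4 captured the CD4+ cells, whereas CD8+ cells were what remained after other cells had been removed. The quantity of interest was the lineage difference: the log2 fold change of L-gp130 over control in CD4+ cells (the CD4 effect) minus the same change in CD8+ cells (the CD8 effect). A positive lineage difference means a response that was higher in CD4+ cells, whether through a larger rise there or a larger fall in CD8+ cells. Levels are given as the range and median over the 6 libraries of a group, and for the 3 L-gp130 CD8 libraries as replicates 1, 2 and 3 in turn. Errors after ± are standard errors (SE) on the log2 scale.

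Receptors for interleukin-6 and related cytokines share gp130 as their signalling chain. It activates Janus kinases (JAKs), which phosphorylate the transcription factor STAT3, and STAT3 in turn induces its own inhibitor Socs3. Cre driven by Cd4 regulatory sequences acts in thymocytes that carry both coreceptors, so both mature lineages inherit the recombined allele. In CD4+ cells, interleukin-6 and STAT3 are known for promoting TH17 and follicular helper (TFH) differentiation, and CD8+ cells are known as cytotoxic effectors.

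Summed read counts per library were between 17237661 and 21250567, apart from the control CD4 libraries at 27894037 to 35913566, so depth went with genotype in CD4+ cells. Cd4 averaged 727 CPM (read counts scaled to library size with TMM normalisation) in control CD4 and 8.303 CPM in control CD8 libraries, and Cd8a averaged 10.8 and 1121 CPM. L-gp130 CD4 replicate 1 stood apart on the second principal component of the CD4 libraries, at 62.5 against -36.9 to 21.6 for the others. Control CD8 replicates 1 to 3 (-30.8 to -26) lay apart from replicates 4 to 6 (5.6 to 39.8) on that of the CD8 libraries. The reads of 1 library, control CD4 replicate 5, went against its labelled sex. Counts over gene lists are repeated without both doubted CD4 libraries (L-gp130 replicate 1 and control replicate 5), and with control CD8 replicates 1 to 3 or 4 to 6 alone, where either count was at least 4 and they differed by over 1.5 times.

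Genes that L-gp130 changed in both lineages nearly all moved in the same direction, and a smaller set answered unequally. Of 15758 genes tested in 1 edgeR quasi-likelihood fit, the lineage difference was called (Benjamini-Hochberg adjusted p under 0.05) for 545, or 3.46%. The response was higher in CD4+ cells for 289 of them (1.83% of genes tested) and higher in CD8+ cells for 256 (1.62%). That split, 53.0% higher in CD4+ cells, depended on scaling, since upper-quartile scaling gave 40.2% of 530 genes. Leaving out haemoglobin, immunoglobulin and mitochondrial genes gave 45.5% of 541. Within CD4+ cells 2741 genes rose (17.4%) and 1699 fell (10.8%), and within CD8+ cells 2110 rose (13.4%) and 1842 fell (11.7%). Both effects were called for 2058 genes, of which 1996 moved in the same direction and 62 in opposite directions. The genes with the same direction made up 45.0% of those called in CD4+ cells and 50.5% of those called in CD8+ cells. Across all genes the effects in the 2 lineages, which share no library, had a Pearson correlation of 0.48 and a Spearman correlation of 0.53, as a description over genes that are not independent.

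The 545 genes fell into classes by which effects were called. A response called in 1 lineage alone accounted for 407: 118 rose and 71 fell in CD4+ cells alone, and 126 rose and 92 fell in CD8+ cells alone. Another 74 moved the same way in both lineages by unequal amounts, 62 moved in opposite directions, and for 2 neither effect was called by itself. Separately, 1082 genes (6.87% of those tested) were called in the same direction in both lineages with a 95% interval of the lineage difference inside 1.5-fold, 559 rising and 523 falling. Those are described as similar, and 4 of them, Lcp2 included, are also among the 545. With a median SE of 0.20 for the lineage difference against 0.13 and 0.15 for the CD4 and CD8 effects, a gene called in 1 lineage alone is not thereby shown to differ: only 189 of 2382 such genes in CD4+ cells and 218 of 1894 in CD8+ cells had a called difference. The count of called differences moved with single libraries, and was 236 and 328 without L-gp130 CD8 replicates 1 and 2, 363 without L-gp130 CD4 replicate 6 and 984 without L-gp130 CD4 replicate 1.

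**Figure D1:**
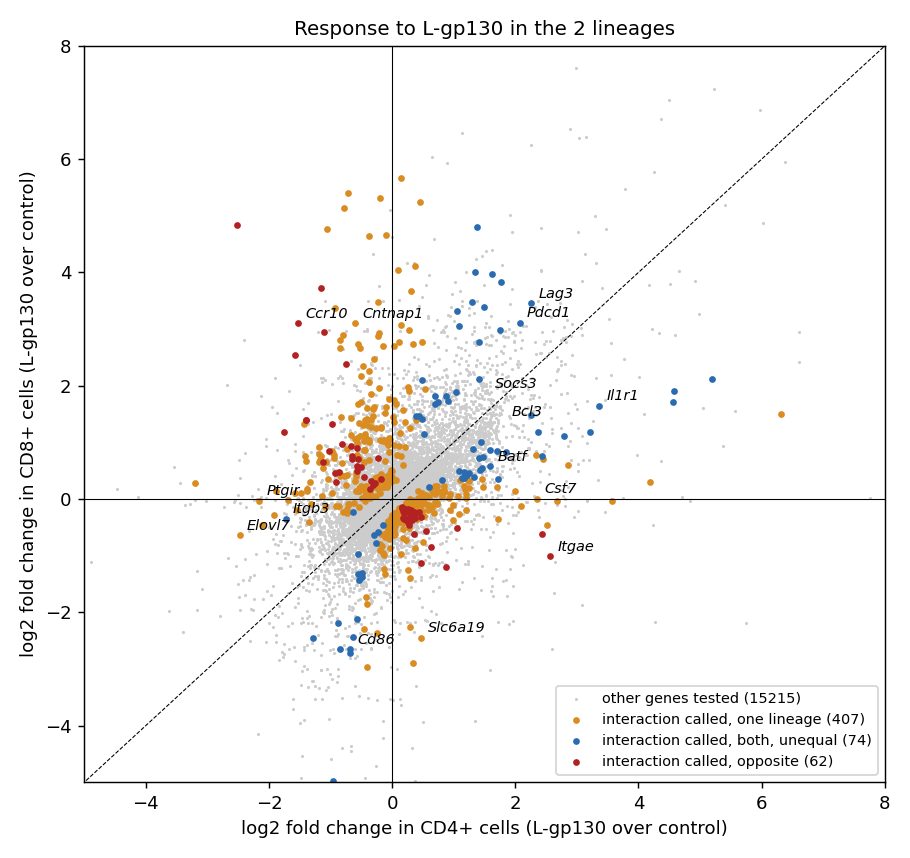
Each point is a gene, with its CD4 effect on the horizontal and its CD8 effect on the vertical axis, both as log2 fold changes of L-gp130 over control, and 35 genes lie outside the axes. Genes with a called lineage difference are coloured as responding in 1 lineage (407), in both by unequal amounts (74) or in opposite directions (62).

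In the opposite class, 31 genes rose in CD4+ and fell in CD8+ cells and 31 did the reverse. Itgae (chr11:73090583-73147446, plus strand on GRCm38) encodes CD103, the integrin chain that pairs with beta 7 to bind E-cadherin. It stood at 6.53 to 9.44 CPM (median 8.21) in control CD4 and 33.5 to 63.5 CPM (median 46.8) in L-gp130 CD4 libraries, and at 162 to 218 CPM (median 185) in control CD8 and 92.3, 78.95 and 112 CPM in L-gp130 CD8 replicates 1, 2 and 3. Neither lineage's groups overlapped, and the gap between control lineages narrowed from both sides. The CD4 effect was 2.57 ± 0.17, the CD8 effect -1.01 ± 0.19 and the lineage difference 3.58 ± 0.26 (edgeR adjusted p = 3.51e-07). Hpcal1, a neuronal calcium sensor family protein, followed at a smaller scale, from 66.1 to 75.8 CPM (median 72.2) to 91.9 to 104 CPM (median 101.5) in CD4 libraries. In CD8 libraries it went from 118 to 131.5 CPM (median 124) to 95.8, 103 and 104 CPM, again without overlap (lineage difference 0.79 ± 0.07, adjusted p = 2.56e-06).

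Ccr10, a chemokine receptor for skin and mucosal homing, was the leading gene of the reverse pattern (chr11:101172997-101175443, minus strand). It fell from 2.66 to 4.99 CPM (median 3.55) to 0.538 to 1.58 CPM (median 1.32) in CD4 libraries. In CD8 libraries it went from 0.9045 to 1.74 CPM (median 1.29) to 7.08, 8.665 and 20.03 CPM, with the highest value in replicate 3 and no overlap in either lineage. The lineage difference was -4.63 ± 0.44 (adjusted p = 2.66e-06). Cntnap1, a neuronal axon-glia junction gene, spans Ccr10 on the other strand (chr11:101170523-101190724, plus strand). It was at 1.41 to 2.33 CPM (median 1.93) in control CD8 and 14.8, 13 and 21.2 CPM in L-gp130 CD8 libraries, a CD8 effect of 3.11 ± 0.25, while its CD4 effect of -0.60 ± 0.24 was not called (adjusted p = 0.0667, called in 4 of 21 fits with a library left out, at 0.006 to 0.0495). The libraries are unstranded. The annotated exons of Cntnap1 share 233 bases with Plekhh3 and none with Ccr10. Plekhh3 averaged 2.05 CPM in control and 1.20 CPM in L-gp130 CD4 libraries, and 1.58 and 4.43 CPM in CD8 libraries. Its means thus moved in the same directions as those of Ccr10 and Cntnap1, and a role of shared reads was not tested.

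Transcription factor Pou6f1 fell from 53.6 to 57.55 CPM (median 57.3) to 37.7 to 46.8 CPM (median 42.7) in CD4+ cells and rose from 79.2 to 89.6 CPM (median 82.9) to 110.4, 118 and 102 CPM in CD8+ cells, without overlap (lineage difference -0.83 ± 0.08, adjusted p = 5.42e-06). Ppm1j, a protein phosphatase of the PP2C family, fell from 20.1 to 24.96 CPM (median 22.96) to 10.9 to 14.3 CPM (median 11.9) in CD4+ cells. Its CD8 libraries were at 15.8 to 21.75 CPM (median 20.3) in controls and 23.2, 25.6 and 24.3 CPM with L-gp130, and this small rise of 0.31 ± 0.10 was not called without any 1 of the 3 L-gp130 CD8 libraries (adjusted p 0.0555 to 0.119). Tcf4, an E protein transcription factor, had a CD4 effect of -0.86 ± 0.14 and a CD8 effect of 0.47 ± 0.16 (lineage difference -1.34 ± 0.22, adjusted p = 0.0011). L-gp130 CD8 values of Tcf4 (12.4, 9.04 and 9.15 CPM) overlapped the controls (5.36 to 9.38 CPM (median 7.37)), and the CD8 effect was not called in 7 of 21 fits with a library left out (adjusted p 0.0562 to 0.279). Genes of dendritic cells, whose plasmacytoid type also expresses Tcf4, summed to 2547 to 3452 CPM (median 2989) in control CD4, 1719 to 5486 CPM (median 2393) in L-gp130 CD4, 702 to 927.5 CPM (median 755.5) in control CD8 and 601.5 to 654.5 CPM (median 621) in L-gp130 CD8 libraries. Their part in the result was not tested.

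**Figure D2:**
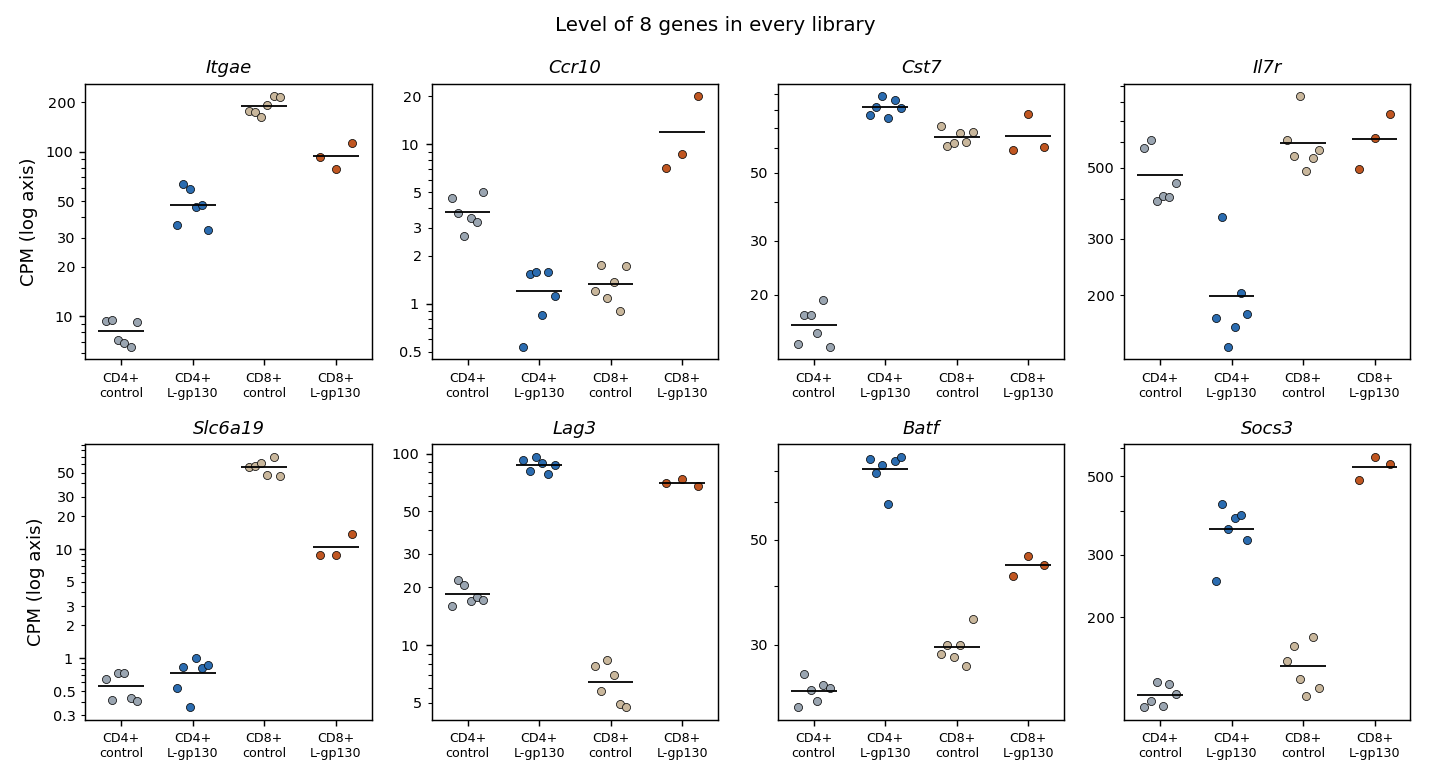
Level of 8 genes in every library, as TMM-normalised CPM on a log axis, with 1 point per library and a line at the group mean. Itgae and Ccr10 move in opposite directions in the 2 lineages, Cst7 and Il7r change in CD4 libraries, Slc6a19 falls in CD8 libraries, Lag3 and Batf rise in both by unequal amounts, and Socs3 rises in both.

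Promoters of genes that moved oppositely or unequally are shown to let the sequence next to the start site be read beside the response. RefSeq promoters on GRCm38.p6 (250 bases before to 50 after a start site) were matched for 99 of the 129 genes named by rule. They were searched on both strands for TTCNNNGAA, the palindromic core that STAT dimers bind, and for TGTGGT, the core bound by RUNX factors, which act in CD8 lineage choice. The 2 motifs do not overlap each other in the promoters printed. Capitals mark the matches. Hpcal1 (chr12:17690559-17690858, plus strand) and Pou6f1 (chr15:100599935-100600234, minus strand) represent the 2 opposite patterns, Batf (chr12:85686470-85686769, plus strand) and Etv6 (chr6:134035450-134035749, plus strand) unequal rises, and Sh3bp5 (chr14:31436051-31436350, minus strand) an unequal fall, in order:
Hpcal1: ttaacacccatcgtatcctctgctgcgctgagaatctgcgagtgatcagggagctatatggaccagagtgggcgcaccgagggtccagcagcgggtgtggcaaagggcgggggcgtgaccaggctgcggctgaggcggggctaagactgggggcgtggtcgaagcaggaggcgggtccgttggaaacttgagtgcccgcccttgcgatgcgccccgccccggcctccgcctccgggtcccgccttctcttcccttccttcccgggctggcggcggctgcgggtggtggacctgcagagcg
Pou6f1: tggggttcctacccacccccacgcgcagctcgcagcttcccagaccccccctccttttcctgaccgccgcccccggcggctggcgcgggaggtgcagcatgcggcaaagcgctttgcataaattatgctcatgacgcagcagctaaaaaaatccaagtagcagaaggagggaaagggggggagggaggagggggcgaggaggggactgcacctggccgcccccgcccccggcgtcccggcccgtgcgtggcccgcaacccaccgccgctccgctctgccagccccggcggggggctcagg
Batf: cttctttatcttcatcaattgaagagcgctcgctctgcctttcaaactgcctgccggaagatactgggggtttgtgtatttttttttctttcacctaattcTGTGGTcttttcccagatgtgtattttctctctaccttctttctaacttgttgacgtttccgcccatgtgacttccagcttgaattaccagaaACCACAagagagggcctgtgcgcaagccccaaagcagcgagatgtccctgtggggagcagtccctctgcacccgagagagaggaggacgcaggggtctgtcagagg
Etv6: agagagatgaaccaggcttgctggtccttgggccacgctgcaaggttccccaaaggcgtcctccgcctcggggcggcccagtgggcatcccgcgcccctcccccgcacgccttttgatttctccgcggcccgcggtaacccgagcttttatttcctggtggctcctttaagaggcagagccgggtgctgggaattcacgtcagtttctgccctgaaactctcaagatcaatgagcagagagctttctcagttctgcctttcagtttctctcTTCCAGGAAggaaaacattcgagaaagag
Sh3bp5: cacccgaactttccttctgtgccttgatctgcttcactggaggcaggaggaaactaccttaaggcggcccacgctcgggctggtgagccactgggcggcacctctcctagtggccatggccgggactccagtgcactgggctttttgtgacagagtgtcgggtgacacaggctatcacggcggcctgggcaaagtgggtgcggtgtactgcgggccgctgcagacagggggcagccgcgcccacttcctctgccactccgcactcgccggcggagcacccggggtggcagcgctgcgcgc
The Batf window held TGTGGT 149 and 56 bases before the start site, the latter read on the opposite strand, and the Etv6 window held TTCCAGGAA 21 bases after it. The windows of Hpcal1, Pou6f1 and Sh3bp5 held neither motif. TTCNNNGAA occurred in 8.3% of all 32851 promoters of this length and TGTGGT in 16.8%, and with 1 promoter for each gene tested in 7.02% and 13.3% of 11273, to which the shares by response compare. Among genes that rose in both lineages by unequal amounts the shares were 4.88% and 17.1% of 41 promoters. Genes that fell in CD4+ and rose in CD8+ cells had shares of 15.8% and 10.5% of 19 promoters, and similar genes that rose 6.24% and 14% of 465. These shares are descriptions.

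Responses of CD4+ cells alone had a median CD4 effect of 0.51 among the 118 genes that rose, beside a median CD8 effect of -0.08. Cst7, which encodes cystatin F, an inhibitor of lysosomal cathepsins in cytotoxic cells (chr2:150570415-150578944, plus strand), was at 13.5 to 19.2 CPM (median 16.05) in control CD4 and 75.4 to 88.7 CPM (median 81.3) in L-gp130 CD4 libraries. Control CD8 libraries were at 61.05 to 71.1 CPM (median 65.1) and L-gp130 CD8 libraries at 59.2, 77.4 and 60.4 CPM. Thus the CD4 groups did not overlap, L-gp130 CD4 libraries lay above every control CD8 library, and CD8 libraries of both genotypes overlapped (CD4 effect 2.36 ± 0.09, lineage difference 2.35 ± 0.14, adjusted p = 4.42e-09). Tspan5, a tetraspanin that guides the protease ADAM10, rose by 1.19 ± 0.08 in CD4+ cells and its CD8 effect was 0.02 ± 0.09. Limk1, a kinase of the actin cytoskeleton, rose by 0.69 ± 0.06 beside -0.05 ± 0.06 in CD8+ cells. Hif1a, the hypoxia-inducible factor and a known STAT3 target, went from 135 to 155 CPM (median 144) to 209.7 to 280.4 CPM (median 244) in CD4+ cells, and from 89.5 to 112 CPM (median 99.3) to 96.5, 108 and 106 CPM in CD8+ cells, where the groups overlapped (lineage difference 0.75 ± 0.11, adjusted p = 0.000654).

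Genes of the gp130 pathway itself appeared among the responses of CD4+ cells. Ptpn11 encodes SHP2, a phosphatase recruited to gp130, and rose from 133 to 152 CPM (median 142) to 173 to 279.5 CPM (median 229) in CD4+ cells. In CD8+ cells it was at 118 to 128 CPM (median 123) and 117.5, 119 and 117.5 CPM, with overlap (lineage difference 0.79 ± 0.12, adjusted p = 0.000555). Ptpn1, a phosphatase acting on JAK2, rose by 0.56 ± 0.05 beside 0.07 ± 0.06. Jak2 rose by 0.29 ± 0.06 beside -0.13 ± 0.07, and its lineage difference was not called without L-gp130 CD8 replicate 1 (adjusted p = 0.0764). TH17 genes were in this class too. Il23r, the interleukin-23 receptor that maintains TH17 cells, went from 0.279 to 0.614 CPM (median 0.3335) to 1.17 to 3.17 CPM (median 1.97) in CD4+ cells and stood at 0.953 to 2.06 CPM (median 1.42) and 0.581, 1.12 and 1.495 CPM in CD8+ cells, where groups overlapped (lineage difference 2.97 ± 0.48, adjusted p = 0.00106). Il22, a TH17 cytokine acting on epithelium, was at 0 to 0.0286 CPM (median 0) in control CD4, 0.323 to 1.2 CPM (median 0.8101) in L-gp130 CD4, 0 to 0.407 CPM (median 0.221) in control CD8 and 0.528, 0.535 and 0.837 CPM in L-gp130 CD8 libraries (adjusted p of the lineage difference 0.00698). A fold is not given for Il22 because control CD4 libraries were at or next to 0, and its CD8 effect (adjusted p = 0.0531) was called without L-gp130 CD4 replicate 1 or control CD8 replicate 2 (0.0341 and 0.0371). Tnfsf8, the CD30 ligand, went from 49.9 to 68.8 CPM (median 61.3) to 76.7 to 178 CPM (median 143) in CD4+ and from 62.3 to 70.9 CPM (median 66.5) to 68.2, 86.9 and 71.2 CPM in CD8+ cells, with overlap in CD8+ cells (lineage difference 1.07 ± 0.22, adjusted p = 0.00863, and 0.051 without L-gp130 CD8 replicate 1).

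Falls in CD4+ cells alone were larger, with a median CD4 effect of -0.83 over 71 genes. Il7r encodes the interleukin-7 receptor, on which naive and memory T cells depend for survival (chr15:9505788-9530176, minus strand). It was at 393 to 612 CPM (median 427) in control CD4 and 138 to 350.4 CPM (median 172) in L-gp130 CD4 libraries, without overlap, and at 487 to 835.5 CPM (median 555) and 494, 618 and 736.5 CPM in CD8 libraries, with overlap. The lineage difference of -1.18 ± 0.29 (adjusted p = 0.028) was not called without L-gp130 CD4 replicate 6, control CD4 replicate 1, L-gp130 CD8 replicate 2 or 3, or control CD8 replicate 6 (adjusted p 0.0555 to 0.085). Dapk1, a death-associated kinase, fell from 17.2 to 20.9 CPM (median 19.1) to 4.57 to 7.68 CPM (median 6.07) in CD4+ cells and was at 6.55 to 9.28 CPM (median 7.43) and 7.398, 7.01 and 8.91 CPM in CD8+ cells (lineage difference -1.68 ± 0.19, adjusted p = 2.15e-05). Elovl7, a fatty acid elongase, fell from 2.69 to 5.05 CPM (median 3.63) to 0.344 to 1.35 CPM (median 0.496), and in CD8+ cells stood at 9.76 to 15.05 CPM (median 11.4) and 8.03, 8.18 and 6.58 CPM, which also did not overlap although the CD8 effect of -0.64 ± 0.27 was not called (adjusted p = 0.0848, and 0.024 without L-gp130 CD4 replicate 6). Ptgir, the prostacyclin receptor, had a CD4 effect of -2.16 ± 0.24 and a CD8 effect of -0.03 ± 0.29. Zbtb7b, the ThPOK factor that specifies the CD4 lineage, had a CD4 effect of -0.50 ± 0.11 and was low in CD8 libraries, at 19.3 to 30.15 CPM (median 27.6) and 26.7, 31.1 and 33.6 CPM (lineage difference -0.74 ± 0.17, adjusted p = 0.0167, and 0.0526 without L-gp130 CD8 replicate 2).

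Rises in CD8+ cells alone had a median CD8 effect of 1.29 over 126 genes, beside a median CD4 effect of -0.18. Pltp, a phospholipid transfer protein, went from 7.97 to 13.9 CPM (median 10.7) to 40.3, 39.05 and 28.7 CPM in CD8+ cells and from 13.6 to 17.7 CPM (median 16.25) to 13.7 to 26.1 CPM (median 17.4) in CD4+ cells (lineage difference -1.71 ± 0.22, adjusted p = 9.41e-05). Its exons share 495 bases with Ctsa on the other strand, which averaged 186 and 272 CPM in control and L-gp130 CD8 libraries, and their part in the result was not tested. Mmrn2, an extracellular matrix protein, went from 0.174 to 0.798 CPM (median 0.443) to 3.96, 2.73 and 2.63 CPM in CD8+ cells, both below the 11.3 to 18.3 CPM (median 14.5) of control CD4 libraries. Ahr, the aryl hydrocarbon receptor of TH17 and innate-like cells, rose from 4.94 to 7.35 CPM (median 6.11) to 10.99, 12.6 and 12.3 CPM in CD8+ cells, toward the 12.9 to 15.7 CPM (median 14.6) of control CD4 and 11.2 to 17.3 CPM (median 13.7) of L-gp130 CD4 libraries, which overlapped (lineage difference -0.92 ± 0.18, adjusted p = 0.00612). Havcr2 (TIM-3, an inhibitory receptor) rose by 1.25 ± 0.18 in CD8+ cells beside 0.28 ± 0.15 in CD4+ cells, a difference not called without L-gp130 CD4 replicate 2 or L-gp130 CD8 replicate 1 (adjusted p 0.0523 to 0.102). Polr1b, a subunit of RNA polymerase I, rose by 0.40 ± 0.07 in CD8+ cells and had a CD4 effect of -0.08 ± 0.07 (adjusted p of the difference 0.00686).

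Falls in CD8+ cells alone had a median CD8 effect of -0.41 over 92 genes. Slc6a19, a transporter of neutral amino acids (chr13:73679745-73704865, minus strand), was at 46.97 to 69.8 CPM (median 57.1) in control CD8 and 8.77, 8.88 and 13.9 CPM in L-gp130 CD8 libraries, against 0.402 to 0.731 CPM (median 0.535) and 0.355 to 1.01 CPM (median 0.826) in CD4 libraries. It was thus a CD8 gene in these controls that lost most of its level with L-gp130 (CD8 effect -2.45 ± 0.21, lineage difference 2.91 ± 0.33, adjusted p = 2.23e-05). Rarg, a retinoic acid receptor, went from 71.9 to 107 CPM (median 83.1) to 29.4, 32.5 and 40.85 CPM in CD8+ cells and from 37.2 to 44.1 CPM (median 40.75) to 29.5 to 44.2 CPM (median 37.2) in CD4+ cells, where the groups overlapped (lineage difference 1.21 ± 0.17). Tnip1, an inhibitor of NF-kB signalling, fell from 143 to 169 CPM (median 150.4) to 103, 107 and 117 CPM in CD8+ cells and was at 127 to 147 CPM (median 135) and 135 to 142 CPM (median 139) in CD4+ cells (lineage difference 0.52 ± 0.08). Tnfrsf18 (GITR, a costimulatory receptor of regulatory T cells) fell from 34.75 to 43.9 CPM (median 38.8) to 24.4, 25.5 and 25.9 CPM, a CD8 effect of -0.64 ± 0.08 beside a CD4 effect of 0.03 ± 0.07. Cd2, an adhesion receptor, had a CD8 effect of -0.60 ± 0.07 beside -0.11 ± 0.06 in CD4+ cells. The lymphotoxin gene Lta had -0.86 ± 0.14 beside -0.03 ± 0.12, and Cd84, a SLAM family receptor, -0.41 ± 0.06 beside -0.02 ± 0.05. The lineage difference of Lta was not called without L-gp130 CD8 replicate 1 or 2 (adjusted p 0.0872 to 0.102), nor that of Cd84 without L-gp130 CD8 replicate 1 (0.0674). Effector gene Ahnak, a scaffold protein with a CD8 effect of -0.995 ± 0.17, lost its called difference without L-gp130 CD4 replicate 2 or 6, L-gp130 CD8 replicate 1 or 2 or control CD8 replicate 6 (0.0544 to 0.132).

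Among genes that moved the same way by unequal amounts, 54 rose and 20 fell in both lineages, and the rise was larger in CD4+ cells for 30 of the 54. Batf, an AP-1 family factor needed for TH17 and TFH cells (chr12:85686669-85709087, plus strand), went from 22.1 to 26 CPM (median 24.1) to 59.6 to 74.8 CPM (median 72.7) in CD4+ cells and from 26.97 to 33.9 CPM (median 29.3) to 41.9, 46.3 and 44.2 CPM in CD8+ cells. Control CD8 libraries lay slightly above control CD4 libraries, and neither lineage's groups overlapped (CD4 effect 1.59 ± 0.07, CD8 effect 0.58 ± 0.07, lineage difference 1.02 ± 0.10, adjusted p = 3.32e-06). Etv6, an ETS family repressor, rose by 1.13 ± 0.06 and 0.37 ± 0.06 in CD4+ and CD8+ cells. Egr2, a factor induced by antigen receptor signals, rose by 1.46 ± 0.10 and 0.54 ± 0.11, and Tnfsf14, the costimulatory ligand LIGHT, by 1.43 ± 0.09 and 0.52 ± 0.10. Il1r1, the interleukin-1 receptor of TH17 cells, went from 2.09 to 4.98 CPM (median 4.12) to 17.1 to 43.7 CPM (median 32.2) in CD4+ and from 2.09 to 5 CPM (median 3.26) to 8.402, 10.3 and 13.75 CPM in CD8+ cells, from like control levels (lineage difference 1.72 ± 0.40, adjusted p = 0.021, and 0.0591 to 0.101 without L-gp130 CD8 replicate 1 or 2). Crtam, an adhesion receptor of cytotoxic T cells, went from 5.44 to 6.87 CPM (median 6.025) to 14.5 to 26.3 CPM (median 21.35) in CD4+ cells and from the higher 43.5 to 51.5 CPM (median 48.1) to 58.6, 69.3 and 56.03 CPM in CD8+ cells (lineage difference 1.36 ± 0.17, adjusted p = 7.89e-05). The CD8 effect of Crtam, 0.36 ± 0.12, was not called in 8 of 21 fits with a library left out, including each that left out an L-gp130 CD8 library (adjusted p 0.05 to 0.185).

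Several receptors that were far lower in control CD8 than in control CD4 libraries rose by more on the log2 scale in CD8+ cells. Lag3, an inhibitory receptor that binds MHC class II (chr6:124904361-124911705, minus strand), went from 16 to 21.9 CPM (median 17.5) to 78.5 to 96 CPM (median 87.8) in CD4+ cells and from 4.73 to 8.35 CPM (median 6.36) to 69.97, 73.8 and 67.7 CPM in CD8+ cells. The control CD8 libraries were below every control CD4 library, and L-gp130 CD8 libraries lay just below the L-gp130 CD4 range (lineage difference -1.20 ± 0.18, adjusted p = 0.000555). Pdcd1 (PD-1) followed, from 16.9 to 24.04 CPM (median 20.7) to 69.2 to 100.1 CPM (median 86.5) in CD4+ and from 2.765 to 5.325 CPM (median 4.08) to 40.3, 35.6 and 29.5 CPM in CD8+ cells (lineage difference -1.04 ± 0.21, adjusted p = 0.00848, and 0.0532 without L-gp130 CD8 replicate 1). Il2ra, the high-affinity interleukin-2 receptor chain, went from 3.505 to 8.31 CPM (median 6.72) to 16.1, 17.4 and 19.3 CPM in CD8+ cells and from 62.6 to 81.85 CPM (median 66.15) to 71.05 to 108 CPM (median 83.4) in CD4+ cells. The CD4 groups of Il2ra overlapped, and its CD4 effect of 0.38 ± 0.14 was not called in 14 of 21 fits with a library left out (adjusted p 0.0533 to 0.182). Tnfrsf8 (CD30), Itgb8 (an integrin chain that activates TGF-beta) and Ccr4 (a skin-homing receptor) had CD8 effects of 3.06 ± 0.31, 3.48 ± 0.32 and 1.69 ± 0.17 and CD4 effects of 1.08 ± 0.24, 1.30 ± 0.21 and 0.70 ± 0.13. Their control CD8 ranges were 0.271 to 0.6299 CPM (median 0.324), 0.0581 to 0.298 CPM (median 0.196) and 1.43 to 2.94 CPM (median 2.805), and the difference of Ccr4 was not called without L-gp130 CD8 replicate 2 (adjusted p = 0.0766). Cd4 itself averaged 8.303 CPM in control and 11.65 CPM in L-gp130 CD8 libraries (adjusted p = 0.292), and a part of CD4+ cells in these results was not tested. In bulk libraries like these, a change in the number of cells of a type cannot be told apart from a change in RNA per cell.

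Among genes that fell in both lineages by unequal amounts was Akap2, a protein kinase A anchor, which went from 16.6 to 20.9 CPM (median 17.99) to 11.8 to 14.1 CPM (median 12.9) in CD4+ cells and from 37.8 to 46.65 CPM (median 42.6) to 17.2, 15.5 and 14.9 CPM in CD8+ cells (lineage difference 0.89 ± 0.11, adjusted p = 6.91e-05). Sh3bp5, an inhibitor of the kinase Btk, had effects of -0.49 ± 0.09 in CD4+ and -1.30 ± 0.11 in CD8+ cells. Itgb3, the integrin chain shared by the vitronectin and platelet fibrinogen receptors, fell from 183 to 212 CPM (median 200.5) to 52.3 to 64.7 CPM (median 60.7) in CD4+ cells, and in CD8+ cells it was at 32.15 to 46.6 CPM (median 36.3) and 28.01, 31.99 and 29.6 CPM. The smaller CD8 effect of -0.35 ± 0.10 was not called without L-gp130 CD8 replicate 1 or 3 (adjusted p 0.0644 to 0.0754). Itgb3 is also a platelet gene and is counted in the platelet list used here. Of 8 platelet genes tested 1 rose in CD4+ cells, with a median CD4 effect of 0.62 over the list. The 1 platelet gene that fell in CD4+ cells and in CD8+ cells was Itgb3 itself, so that count is not separate from it. The part of platelets in the result was not tested. Cd86, a costimulatory ligand of antigen-presenting cells, was at 19.1 to 32.2 CPM (median 26.8) in control CD4, 12.3 to 39.2 CPM (median 14.6) in L-gp130 CD4, 14.9 to 24.96 CPM (median 19.8) in control CD8 and 3.17, 2.51 and 3.53 CPM in L-gp130 CD8 libraries. L-gp130 CD4 replicate 1 held the highest Cd86 value. The CD4 effect of Cd86 was not called in 14 of 21 fits with a library left out (adjusted p 0.0532 to 0.127), and its lineage difference not without L-gp130 CD8 replicate 1 or 2 (0.0548 to 0.055). Monocyte and macrophage genes, other carriers of Cd86, summed to 507 to 978 CPM (median 645) in control and 422 to 546 CPM (median 496) in L-gp130 CD8 libraries. Of 14 such genes 8 fell in CD8+ cells (5 without L-gp130 CD8 replicate 1), with a median CD8 effect of -1.30. In CD4+ cells 0 of them fell with all libraries and 11 without both doubted CD4 libraries. Their sums were 749 to 1734 CPM (median 1354) in control CD4 and 665 to 2797 CPM (median 875) in L-gp130 CD4 libraries. The part of these genes in the result was not tested.

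Socs3 and Stat3 rose in both lineages. Socs3, the STAT3-induced inhibitor of gp130 signalling, went from 112 to 132 CPM (median 119) to 253 to 417 CPM (median 368) in CD4+ cells and from 120.2 to 176 CPM (median 142) to 487, 566 and 539.6 CPM in CD8+ cells. No L-gp130 library overlapped its controls, and the CD4 effect of 1.55 ± 0.12 and the CD8 effect of 1.87 ± 0.13 had a lineage difference with a 95% interval of -0.68 to 0.05. Stat3 rose by 0.65 ± 0.06 and 0.57 ± 0.06 (interval of the difference -0.10 to 0.26). Il6st, the endogenous gp130 gene, was at 322 to 371.5 CPM (median 340.4) in control CD4, 139.8 to 334 CPM (median 287) in L-gp130 CD4, 239.8 to 311 CPM (median 268) in control CD8 and 205, 185 and 191 CPM in L-gp130 CD8 libraries. Its CD4 effect of -0.29 ± 0.14 was not called, and its CD8 effect of -0.48 ± 0.17 was not called in 8 of 21 fits with a library left out (adjusted p 0.0506 to 0.151). Reads of the L-gp130 transgene were not separated from those of Il6st. Bcl3, an IkB family coactivator and STAT3 target, rose by 1.83 ± 0.09 and 1.76 ± 0.10, and Jak3, the kinase of the common gamma chain, by 1.47 ± 0.08 and 1.40 ± 0.08. Of 11 JAK and STAT genes tested 4 rose in CD4+ cells, 3 rose and 1 fell in CD8+ cells, and 3 were similar. Of 14 SOCS and other feedback genes 4 rose in CD4+ cells, and 2 rose and 1 fell in CD8+ cells. Of all genes 17.4% rose in CD4+ cells, and 13.4% rose and 11.7% fell in CD8+ cells. Known STAT3 targets rose for 11 of 22 in CD4+ and 12 in CD8+ cells (medians 0.79 and 0.56), with the difference called for Batf and Hif1a (for 4 of the 22 without both doubted CD4 libraries and 6 with control CD8 replicates 4 to 6 alone). Il6ra, the interleukin-6 receptor chain, fell in both lineages (-1.22 ± 0.13 and -0.73 ± 0.15). Other similar rises were those of Vmp1, an autophagy gene and STAT3 target (1.49 ± 0.08 and 1.32 ± 0.09), and Cd160 (1.60 ± 0.13 and 1.45 ± 0.14), an inhibitory receptor. S100a6, a calcium-binding protein of activated T cells, rose by 1.69 ± 0.14 and 1.66 ± 0.15, and Mthfd2, an enzyme of mitochondrial one-carbon metabolism, by 0.98 ± 0.08 and 0.97 ± 0.09. Exons of Jak3, Stat3, Cxcr5 and Sh3bp5 overlap those of Insl3 (404 bases), Stat5a (72), Bcl9l (110) and Capn7 (116), and reads there are uncertain. Jak3 and Insl3 lie on the same strand, and the other pairs on opposite strands. Similar falls included the quiescence factors Klf2 (-0.73 ± 0.08 and -0.57 ± 0.10) and Foxp1 (-0.76 ± 0.11 and -0.59 ± 0.13).

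The 49 function lists held 895 distinct genes tested, of which 52 (5.81%) had a called lineage difference, beside 3.46% of all genes. The other 493 called genes were in no function list. Over all genes tested the median CD4 effect was 0.02, the median CD8 effect 0.01 and the median lineage difference 0.04. Of 13 TH17 genes tested, 10 rose and 1 fell in CD4+ cells and 6 rose in CD8+ cells, with medians of 1.26 and 0.58. The lineage difference was called for 5 of them: Il22, Il23r, Il1r1 and Batf higher in CD4+ cells, and Ahr higher in CD8+ cells. Of 13 TFH genes 12 rose in CD4+ and 8 in CD8+ cells (medians 1.02 and 0.57), with the difference called for Sh2d1a, the SAP adaptor, at 0.76, Cxcr5, the follicle-homing receptor, at 1.02, Icos and, in favour of CD8+ cells, Pdcd1 (2 called with control CD8 replicates 1 to 3 alone). Regulatory T cell genes had medians of 0.94 in CD4+ and 1.22 in CD8+ cells, with 9 of 15 rising in CD4+ and 10 rising and 2 falling in CD8+ cells. Their called differences went in both directions: Itgae, Izumo1r and Tnfrsf18 higher in CD4+ cells, and Foxp3 and Il2ra higher in CD8+ cells. Foxp3, the regulatory T cell factor, was at 55.7 to 86.7 CPM (median 71.8) in control CD4, 63.4 to 106 CPM (median 86.3) in L-gp130 CD4, 1.77 to 4.47 CPM (median 2.49) in control CD8 and 6.45, 8.24 and 5.86 CPM in L-gp130 CD8 libraries. Its exons share 853 bases with Flicr on the same strand and 590 with Ccdc22 on the other strand, so reads there are uncertain.

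Lists of surface receptors and secreted factors also held called differences. Of 14 costimulatory receptors, 7 rose in CD4+ cells, and 3 rose and 3 fell in CD8+ cells. The difference was called for 6: Cd2, Tnfrsf18, Icos, Tnfrsf14 and Tnfrsf9 higher in CD4+ cells and Tnfrsf8 higher in CD8+ cells (3 called with control CD8 replicates 1 to 3 alone). Among 14 inhibitory receptors 6 rose and 2 fell in CD4+ and 7 rose and 2 fell in CD8+ cells, and all 3 called differences (Lag3, Pdcd1 and Havcr2) were higher in CD8+ cells. Cytokine ligands had the reverse, with 5 of 23 called and each of the 5 (Il22, Tnfsf8, Tnfsf14, Lta and Ltb) higher in CD4+ cells, beside 12 rises and 2 falls in CD4+ and 8 rises and 3 falls in CD8+ cells. With control CD8 replicates 1 to 3 alone 3 ligands were called, and with either set of 3 alone the falls in CD4+ cells numbered 4. In T cell receptor signalling, 9 of 18 genes rose in CD4+ cells and 1 in CD8+ cells, where 4 fell. The falls in CD8+ cells numbered 2 without L-gp130 CD8 replicate 1 or 3 or with control CD8 replicates 1 to 3 alone. The difference was called for the kinase Fyn and the adaptor Lcp2 (SLP-76), and for 7 genes without both doubted CD4 libraries. Fyn had effects of 0.38 ± 0.06 and -0.03 ± 0.07, and Lcp2 0.60 ± 0.05 and 0.22 ± 0.06. The difference of Fyn was not called without L-gp130 CD8 replicate 1 (adjusted p = 0.0728), and neither was that of Lcp2 (0.0556). The CD8 effect of Lcp2 was not called without replicate 3 (0.0624). T cell identity genes summed to 4197 to 4944 CPM (median 4723) in control CD8 and 3496 to 3951 CPM (median 3885) in L-gp130 CD8 libraries, without overlap, and to 2895 to 3499 CPM (median 3248) and 2922 to 3850 CPM (median 3548) in CD4 libraries. Of 10 such genes 3 rose in CD4+ cells and 4 fell in CD8+ cells (2 without L-gp130 CD8 replicate 1 or 3 or with control CD8 replicates 1 to 3 alone). The 2 with a called difference were Cd2 and Cd8b1 (5 genes without both doubted CD4 libraries). The identity sums include Cd4, Cd8a and Cd8b1. Cd3d, Cd3e, Cd3g, Cd5 and Cd6 belong to the identity and the signalling list, so these lists are not separate. The part of the identity genes in the signalling counts was not tested. Cytotoxic granule genes rose for 9 of 14 in CD4+ cells and 4 in CD8+ cells, with Cst7 the 1 called difference. The count in CD8+ cells was 8 without L-gp130 CD4 replicate 1, alone or with control CD4 replicate 5, and 2 without L-gp130 CD8 replicate 2 or control CD8 replicate 5. It was 1 without L-gp130 CD8 replicate 3, and 2 and 1 with control CD8 replicates 1 to 3 and 4 to 6 alone. Gamma-delta T cell genes summed to 76.7 to 122.5 CPM (median 97.9) in control and 285 to 386 CPM (median 297) in L-gp130 CD8 libraries, without overlap. Of 9 such genes 4 rose in CD8+ cells, and 1 or 2 without any 1 of the L-gp130 CD8 libraries or control CD8 replicate 5 or with control CD8 replicates 1 to 3 alone. NK cell genes summed to 309 to 437 CPM (median 379) and 436 to 558 CPM (median 511), which touched, while 1 of 9 rose and 2 fell in CD8+ cells, with a median effect of -0.42. In CD4 libraries gamma-delta genes summed to 44.5 to 72.6 CPM (median 62.9) and 62.7 to 149 CPM (median 73.6). Their part in these results was not tested.

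Most cell cycle genes rose in both lineages, with 0 called differences. All 24 mitosis genes tested rose in CD4+ cells and 21 in CD8+ cells (medians 1.51 and 1.17), and 31 and 22 of 32 DNA replication genes rose (medians 0.92 and 0.56). In CD8 libraries mitosis genes summed to 433 to 876 CPM (median 568) in controls and 1049 to 1406 CPM (median 1255) with L-gp130 and DNA replication genes to 1384 to 1714 CPM (median 1484) and 2169 to 2473 CPM (median 2189), without overlap. Without L-gp130 CD8 replicate 1, which leaves 2 libraries, the CD8 counts were 6 for mitosis and 8 for DNA replication. Control CD8 replicates 4 to 6 alone gave 6 and 13 and replicates 1 to 3 alone 16 and 14. Glycolysis genes rose for 13 and 11 of 17, and tRNA synthetase and amino acid response genes for 18 and 18 of 31. In the latter list 1 difference was called, for Atf5, a stress-response factor (1.10). Among oxidative phosphorylation genes 33 of 77 rose in CD4+ cells and 8 in CD8+ cells, beside 17.4% and 13.4% of all genes, with 0 called differences. The 33 became 20 without L-gp130 CD4 replicate 6, and 18 and 17 with control CD8 replicates 1 to 3 and 4 to 6 alone. The 8 became 0 without L-gp130 CD8 replicate 1 or 2 or with either set of 3 CD8 controls alone, and 4 or 5 without L-gp130 CD8 replicate 3 or control CD8 replicate 2, 5 or 6. It became 13 without L-gp130 CD4 replicate 1, alone or with control CD4 replicate 5, and 16 without L-gp130 CD4 replicate 4. Mitochondrial transcripts summed to 19600 to 26420 CPM (median 22950) in control and 27600 to 32560 CPM (median 30270) in L-gp130 CD8 libraries, without overlap, and their part in the CD8 values was not tested. Proteasome genes rose for 28 of 46 in CD4+ and 12 in CD8+ cells (4 and 5 without L-gp130 CD8 replicates 1 and 2, and 7 and 4 with control CD8 replicates 1 to 3 and 4 to 6 alone, where replicates 1 to 3 gave 18 in CD4+ cells), also with 0 called differences. Such a gap between counts is no test of a difference between lineages. Ribosome biogenesis genes rose for 3 of 23 in CD4+ and 12 in CD8+ cells (7 without L-gp130 CD8 replicate 1 or with control CD8 replicates 4 to 6 alone). The 2 called differences, of Polr1b and the nucleolar GTPase Gnl3, were higher in CD8+ cells, and with control CD8 replicates 1 to 3 alone 4 were called and 4 genes fell in CD4+ cells.

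Naive T cell genes fell for 12 of 14 in CD4+ and 10 in CD8+ cells (4 without L-gp130 CD8 replicate 1 or with control CD8 replicates 1 to 3 alone), with 6 similar, a called difference only for Il7r and medians of -0.70 and -0.53. Genes of the TGF-beta pathway fell for 10 and 9 of 13, and 8 of the 13 were similar, the transducer Smad4 among them (-0.40 ± 0.08 and -0.46 ± 0.10). The CD8 count of that pathway was 5 without L-gp130 CD8 replicate 1 or 3 and 4 with control CD8 replicates 1 to 3 alone. Of 23 homing receptors 8 fell and 4 rose in each lineage, with a called difference for Ccr10, Ccr4 and Cxcr5. Of all genes 10.8% fell and 17.4% rose in CD4+ cells, and 11.7% fell and 13.4% rose in CD8+ cells. The number of rising homing receptors was thus near the share of all genes. The falls in CD8+ cells numbered 2 and 5 without L-gp130 CD8 replicates 1 and 3 and 3 with control CD8 replicates 1 to 3 alone. Interferon response genes fell for 6 of 27 in each lineage with 0 called differences, and for 12 in CD4+ cells without L-gp130 CD4 replicate 1, alone or with control CD4 replicate 5. Immediate early genes, which react to cell handling, summed to 1480 to 4828 CPM (median 3265) in control CD8 and 4342 to 4938 CPM (median 4401) in L-gp130 CD8 libraries, and to 626 to 698 CPM (median 658) and 842 to 1053 CPM (median 983) in CD4 libraries. The AP-1 and EGR genes overlap that list, and its part in their values was not tested.

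**Figure D3:**
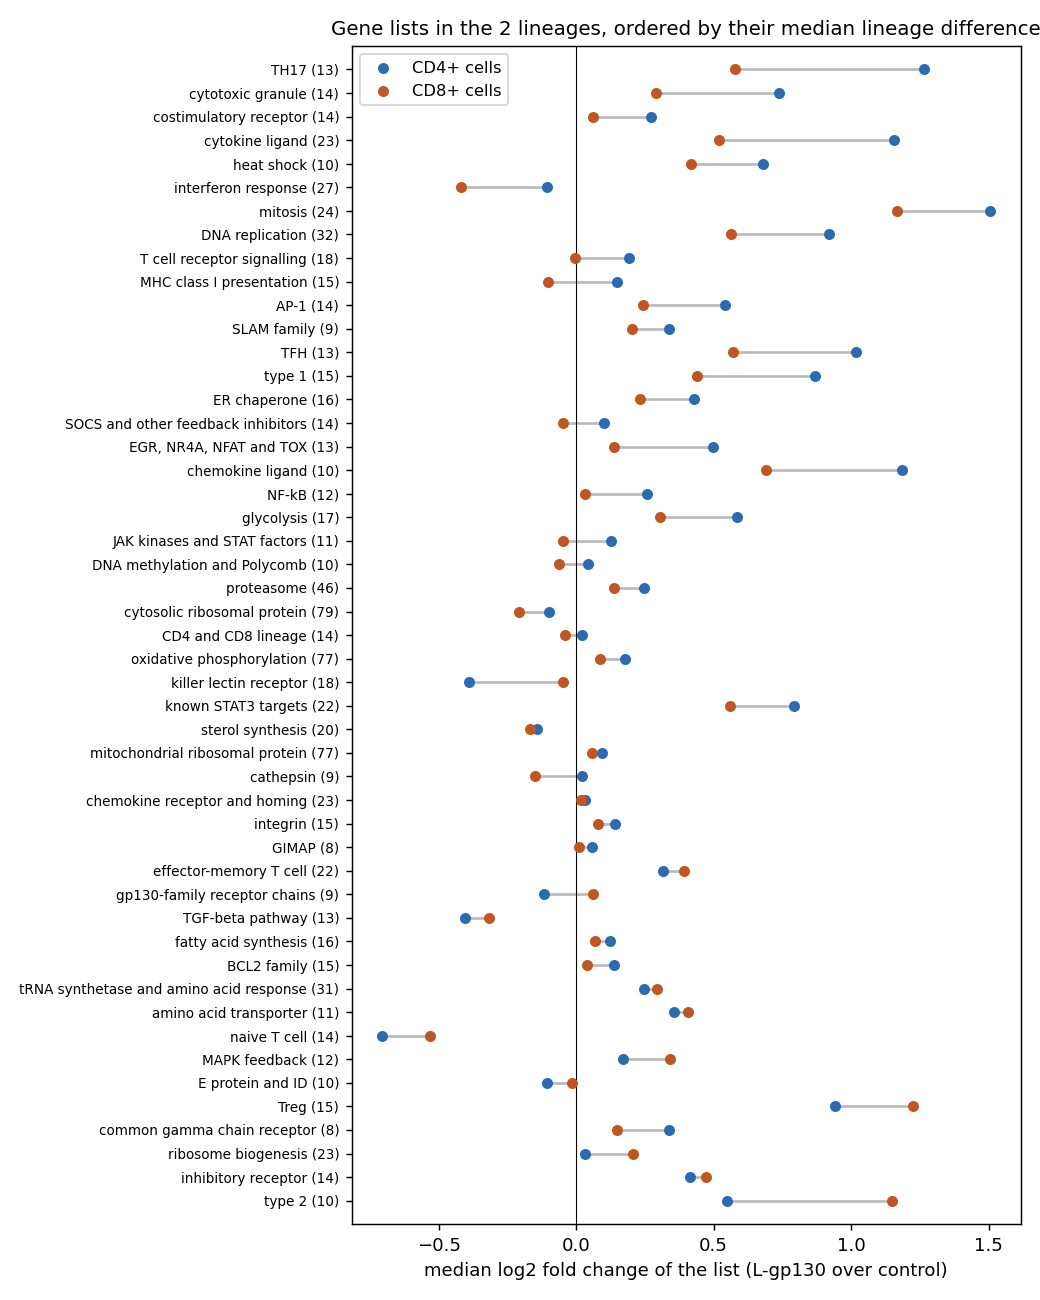
For each of the 49 function lists, the median CD4 effect and the median CD8 effect of its tested genes are drawn as 2 points on a log2 axis, with the number tested in parentheses and lists ordered by median lineage difference. TH17 genes sit at 1.26 and 0.58, mitosis genes at 1.51 and 1.17, and naive T cell genes at -0.70 and -0.53.

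Some called differences of named genes rested on most libraries at once. With each of 21 libraries left out in turn, 42 of the 72 named genes with a called difference kept it every time. Klri1, a killer lectin receptor, lost it in 17 of 21 fits (adjusted p 0.0519 to 0.19), Icos in 16 (0.0583 to 0.16), Cd8b1, the CD8 beta chain, in 15 (0.0547 to 0.223) and Foxp3 in 15 (0.0524 to 0.153). Izumo1r, the folate receptor FR4 of regulatory T cells, lost it in 14 (0.0515 to 0.111), Fosl2, an AP-1 factor, in 13 (0.0534 to 0.16), Gnl3 in 12 (0.0606 to 0.176), Nr4a3, a nuclear receptor induced by T cell receptor signals, in 12 (0.052 to 0.132) and Ltb in 8 (0.0501 to 0.158). Cd8b1 was at 871 to 1176 CPM (median 1066) in control CD8 and 591, 715 and 718 CPM in L-gp130 CD8 libraries and at 19.6 to 23.98 CPM (median 20.7) and 17.5 to 33.55 CPM (median 21.96) in CD4 libraries. For Cxcr5 the call went without L-gp130 CD4 replicate 2 or 6, control CD4 replicate 3, L-gp130 CD8 replicate 1 or 3 or control CD8 replicate 6 (0.0501 to 0.0998). For Tnfrsf9 it went without L-gp130 CD4 replicate 2, any L-gp130 CD8 library or control CD8 replicate 6 (0.0511 to 0.101), and for Atf5 without L-gp130 CD4 replicate 6, L-gp130 CD8 replicate 1 or 2 or control CD8 replicate 6 (0.0643 to 0.136). Tnfrsf14 lost it without L-gp130 CD8 replicate 1 or 3 (0.0518 to 0.0794).

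The direction of called lineage differences also went with the level a gene had in the controls, while over whole baseline classes the median lineage difference was less even. To keep the baseline apart from the test, genes were classed by the control replicates of odd number and the lineage difference was tested with the L-gp130 libraries and the even-numbered controls, and then the other way round. With the baseline from odd-numbered controls, the difference was called for 180 of all 15479 genes tested (1.16%), 38.3% of them with a response higher in CD4+ cells. Of the genes tested, 1528 were at least 2-fold higher in CD4 than in CD8 controls. The difference was called for 57 of these (3.73%), and for 56 of the 57 the response was higher in CD8+ cells, that is toward the level of the other lineage. Among 443 genes at least 2-fold higher in CD8 controls 21 were called (4.74%), 16 of them with a response higher in CD4+ cells. Of 11710 genes within 2-fold, 93 were called (0.794%), 49 higher in CD4+ and 44 in CD8+ cells. Of 1798 genes under 1 CPM in both, 9 were called (0.501%). Over all genes of a class, called or not, the median lineage difference was -0.55 for those higher in CD4 controls. It was 0.05 for those higher in CD8 controls and 0.03 within 2-fold. By mean control level of both lineages, 53 of 58 calls from 1 to 10 CPM were higher in CD8+ cells. From 100 CPM upward 12 of 16 were higher in CD4+ cells.

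With the baseline from even-numbered controls the same directions were seen with fewer calls. Over all 15529 genes tested 84 were called (0.541%), 50% of them with a response higher in CD4+ cells. Among 1704 genes higher in CD4 controls 29 were called (1.70%), 25 with a response higher in CD8+ cells, and among 409 higher in CD8 controls 16 (3.91%), 14 with a response higher in CD4+ cells. Genes within 2-fold had 35 calls of 11567 (0.303%), 23 higher in CD4+ and 12 in CD8+ cells. Over all genes of a class the median lineage difference was -0.08 for those higher in CD4 controls. It was 0.29 for those higher in CD8 controls and 0.04 within 2-fold. From 1 to 10 CPM 18 of 26 calls were higher in CD8+ cells, and from 100 CPM upward 6 of 8 were higher in CD4+ cells. At a 4-fold baseline difference, 30 of 30 and 14 of 16 called genes that were higher in CD4 controls had the response higher in CD8+ cells, and 6 of 8 and 8 of 8 of those higher in CD8 controls had it higher in CD4+ cells. The called genes higher in CD4 controls combined a fall in CD4+ cells (median -0.70 and -0.62 with either set of controls) with a rise in CD8+ cells (1.42 and 1.31). Those higher in CD8 controls had median CD4 effects of 0.67 and 1.45 and CD8 effects of -0.02 and -0.21. On the log2 scale the gap between lineages narrowed for Itgae and Slc6a19, higher in CD8 controls. Among genes higher in CD4 controls it narrowed for Itgb3 by its larger fall in CD4+ cells and Lag3 by its larger rise in CD8+ cells. The gap widened for other named genes, such as Elovl7 (lineage difference -1.83), Il7r (-1.18) and Pou6f1 (-0.83), whose control CD4 medians were below their control CD8 medians. Batf, Il1r1 and Socs3 began from control medians within 1.5-fold of each other in both lineages. These values of single genes share their controls between baseline and response. Markers of some other cells were also higher in CD4 controls. Erythroid genes summed to 4668 to 26610 CPM (median 10480) in control CD4 and 6759 to 39910 CPM (median 13720) in L-gp130 CD4 libraries. In CD8 libraries these genes summed to 148 to 840 CPM (median 264) in controls and 301 to 500 CPM (median 319) with L-gp130. Of 12 erythroid genes 3 rose in CD4+ and 2 in CD8+ cells, with 0 called differences. Stroma genes summed to 269.5 to 323 CPM (median 291) in control CD4, 163 to 216.5 CPM (median 200.3) in L-gp130 CD4, 124 to 156 CPM (median 137) in control CD8 and 82.3 to 84.02 CPM (median 83.97) in L-gp130 CD8 libraries, without overlap in either lineage. Of 7 such genes 5 fell in CD4+ cells, 2 rose and 2 fell in CD8+ cells, and 2 had a called difference (0 with control CD8 replicates 1 to 3 alone). B cell genes had medians of 703 CPM in control CD4, 378 CPM in L-gp130 CD4 and 123 CPM in control CD8 libraries, and 4 of 12 fell in CD4+ cells (0, 2, 8 and 7 without control CD4 replicate 1, L-gp130 CD4 replicate 2, control CD4 replicate 5 and control CD8 replicate 3, 10 without both doubted CD4 libraries, 7 with either set of 3 CD8 controls alone). Their part in the baseline result was not tested.

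**Figure D4:**
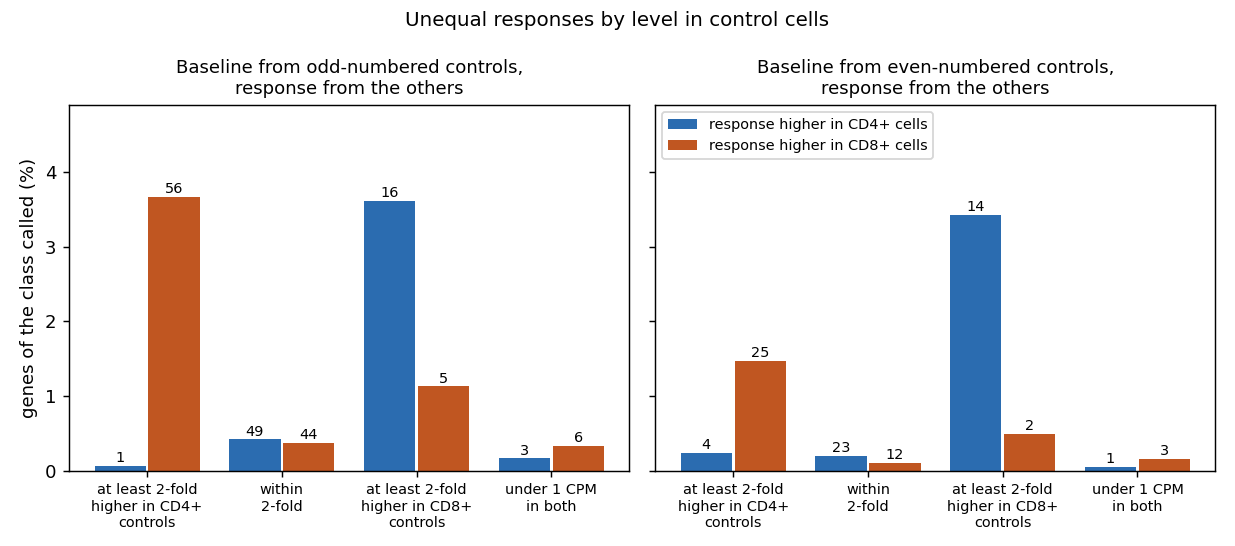
Percent of genes with a called lineage difference by baseline class in the controls, split by direction, with the number of calls above each bar, for the baseline taken from odd-numbered and from even-numbered control replicates. Genes higher in CD4 controls have 56 and 25 calls with the response higher in CD8+ cells against 1 and 4 the other way.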

How the data were processed

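RNA of splenic CD4+ and CD8+ T cells was sequenced as unstranded 150 bp paired ends, with RNA integrity numbers above 7, per the labels' protocols. Build GRCm38, edgeR 3.34.1, Salmon 1.5.2, Trimmomatic 0.39 and cutadapt 3.4 are listed, without role, in the submitters' processing notes. The sources used here do not give the annotation release. Estimated counts per transcript from Salmon, as deposited by the authors for every library, were summed per gene (51200 genes with reads) and rounded. The deposited gene tables of estimated counts entered as an alternative. Gene names and positions came from GENCODE mouse release 21.

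A single fit of the 4 groups over all 21 libraries, with labelled sex as covariate, was made in edgeR 4.0.16 (R 4.3.3) after filterByExpr and TMM. Contrasts were tested 2-sided by robust quasi-likelihood F tests, with Benjamini-Hochberg adjustment over all genes tested and calls at an adjusted p under 0.05. The SE is the absolute log2 fold change divided by the square root of F. Baseline classes used log2 of the mean CPM plus 0.5. On simulated data drawn from these libraries (15528 genes), lineage differences of 0.5, 1 and 2 on the log2 scale were called for 25.4%, 76.1% and 97.0% of changed genes, and 5 of 15328 unchanged genes were called. Replicate pairs differed by a chi-square per gene of 6.73 to 92.8, beyond counting error, so no library repeated another.

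The comparison, the 49 function and 13 context lists and the naming rule were chosen with earlier results of these data known. The rule takes Il6st, Stat3 and Socs3, the 3 genes of smallest adjusted p in each response class (mean log2 CPM of at least 1, without gene models, receptor segments, sex genes and context genes), and from each function list up to 2 members with a called difference and 2 similar ones. Other members are named beside their list's count, and a few genes meeting the rule are left unreported. Mouse numbers did not pair libraries by their correlations, and the labels do not state whether CD4 and CD8 libraries of a number share a mouse. Labelled sex differed between the CD4 and CD8 libraries of L-gp130 numbers 2 and 3 and control numbers 2, 4 and 5. By these labels such pairs are not from 1 mouse, though the reads of control CD4 replicate 5 went against its label. Alternatives were RLE and upper-quartile scaling, DESeq2 1.42.0, limma-voom (limma 3.58.1), other filters and thresholds, no sex covariate or sex from reads, joined gene tables, thinned libraries, a replicate block and left-out libraries. A further alternative left out haemoglobin, immunoglobulin and mitochondrial genes. The settings with CD8 controls 1 to 3 or 4 to 6 alone were chosen after seeing the data.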

Additional observations from a re-analysis of the deposited data

Results flagged for a closer look

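Some libraries stood far from the others of their group in the level of a named gene, by a gap large for the range of the group (Dixon's 95% limit, which chance passes in about 1 of 20 groups). The search covered the 72 named genes with a called lineage difference and Il6st, Stat3 and Socs3, in every group but L-gp130 CD8. With so many groups searched, several such gaps would arise by chance, and the gaps below were not tested against that number. In L-gp130 CD4 replicate 1, Cd86 was at 39.2 CPM, above its group, and Il6st at 140 CPM and Izumo1r at 176 CPM, below it. L-gp130 CD4 replicate 2 had the highest Il7r at 350 CPM, and replicate 4 the lowest Hpcal1 at 91.9 CPM and Ptpn1 at 299 CPM. Among control CD4 libraries, replicate 5 had the lowest Cntnap1 (1.86 CPM) and the highest Il22 (0.0286 CPM), and replicate 4 the highest Havcr2 (16.9 CPM). Among control CD8 libraries, replicate 3 had the highest Il7r at 835 CPM and replicate 4 the lowest Tnfsf14 at 16.7 CPM. Of these libraries L-gp130 CD4 replicate 1 was the one that also stood apart on a principal component, and control CD4 replicate 5 the one whose reads went against its labelled sex.

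The genotype effect differed between lineages, by the cell type by genotype term in edgeR, for the following named genes, given as log2 lineage differences (CD4 effect minus CD8 effect). Genes that rose in CD4+ and fell in CD8+ cells were Hpcal1 0.79 and Itgae 3.58. The reverse was seen for Ccr10 -4.63, Pou6f1 -0.83, Ppm1j -1.22 and Tcf4 -1.34. Called as rising in CD4+ cells alone were Atf5 1.10, Cst7 2.35, Cxcr5 1.02, Fosl2 0.60, Fyn 0.41, Hif1a 0.75, Il23r 2.97, Itgal 0.44, Jak2 0.42, Limk1 0.74, Nfatc1 0.56, Nr4a3 0.57, Ptpn1 0.49, Ptpn11 0.79, Sh2d1a 0.76, Tnfrsf14 0.51, Tnfrsf9 0.68, Tnfsf8 1.07 and Tspan5 1.17, and Il22, whose control CD4 median of 0 gives no fold (adjusted p = 0.00698). Falls called in CD4+ cells alone were those of Dapk1 -1.68, Elovl7 -1.83, Il7r -1.18, Ptgir -2.13, Tmcc3 -1.39 and Zbtb7b -0.74. Rises called in CD8+ cells alone were those of Ahr -0.92, Cntnap1 -3.70, Foxp3 -1.14, Gnl3 -0.43, Havcr2 -0.97, Mmrn2 -3.28, Pltp -1.71 and Polr1b -0.49. Called as falling in CD8+ cells alone were Ahnak 0.86, Cd2 0.49, Cd84 0.39, Cd8b1 0.67, Klri1 2.56, Lta 0.83, Ltb 0.43, Rarg 1.21, Slc6a19 2.91, Tnfrsf18 0.67 and Tnip1 0.52. Unequal rises in both lineages were those of Batf 1.02, Ccr4 -0.98, Crtam 1.36, Egr2 0.92, Etv6 0.76, Icos 0.44, Il1r1 1.72, Il2ra -1.08, Itgb8 -2.18, Izumo1r 0.79, Lag3 -1.20, Lcp2 0.38, Pdcd1 -1.04, S100a11 0.48, Tnfrsf8 -1.97 and Tnfsf14 0.91. Unequal falls in both lineages were those of Akap2 0.89, Cd86 1.97, Itgb3 -1.38 and Sh3bp5 0.81.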

How the results depend on the processing

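The 545 called lineage differences held 223 to 545 of their genes with 1 library left out. Their number then ran from 236 (without L-gp130 CD8 replicate 1) to 984 (without L-gp130 CD4 replicate 1), with 103 to 575 higher in CD4+ and 133 to 409 higher in CD8+ cells. The classes ran from 93 to 316 (CD4+ alone), 86 to 409 (CD8+ alone), 25 to 143 (both, unequal) and 32 to 107 (opposite), and similar genes from 693 to 1308. In the order called, higher in CD4+, higher in CD8+, CD4+ alone, CD8+ alone, both and opposite, the counts were 955, 478, 477, 326, 392, 122 and 94 by DESeq2, 268, 135, 133, 95, 106, 35 and 32 with a replicate block on the mouse number, and 888, 464, 424, 289, 362, 130 and 99 without L-gp130 CD4 replicate 1 and control CD4 replicate 5. At an adjusted p under 0.01 they were 195, 99, 96, 66, 89, 23 and 15, with 528 similar genes. A lineage difference of at least 1 on the log2 scale left 239 called, 67 higher in CD4+ cells, 60 in CD4+ alone, 110 in CD8+ alone, 37 in both and 31 opposite. The joined gene tables gave 353 called, 165 higher in CD4+, 123 in CD4+ alone and 41 in both. With no filter 148 were higher in CD4+ cells, 48 in both and 35 opposite. Control CD8 replicates 1 to 3 alone gave 314 called, 125 higher in CD4+, 119 in CD4+ alone, 110 in CD8+ alone, 46 in both and 39 opposite. Replicates 4 to 6 alone gave 838 called, 434 higher in CD4+, 404 higher in CD8+ and 420 in CD8+ alone. The cause was not tested for any of these.

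The share higher in CD4+ cells was 53.0%, and 40.2% by upper-quartile scaling, 40.1% with no filter, 28.0% at a difference of at least 1 and 39.8% with control CD8 replicates 1 to 3 alone. It was 45.5% without haemoglobin, immunoglobulin and mitochondrial genes. DESeq2 called 543 of the 545 genes and the replicate block 253. Same-numbered libraries of different genotype correlated from -0.21 to 0.17 in CD4+ cells (2 of 6 pairs over 0.1) and -0.07 to 0.17 in CD8+ cells (1 of 3), and CD4 and CD8 libraries of 1 genotype from -0.02 to 0.14 in controls (2 of 6) and -0.07 to 0.12 with L-gp130 (1 of 3), so the numbers did not pair them. Across the alternatives run, 0 of the results of named genes reversed direction. The 3 L-gp130 CD8 libraries limit precision, and thinning all libraries to the smallest total called 511. Without sex as a covariate 675 were called, and 615 with sex taken from the reads. DESeq2 and limma-voom gave no count of similar genes.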

Other observations

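Further function lists had few or no called lineage differences. Type 1 genes rose for 8 of 15 in CD4+ cells (5 without control CD4 replicate 1) and 3 in CD8+ cells, with 0 called differences. Type 2 genes (10 tested) numbered 4 rises and 2 falls in CD4+ cells beside 5 rises in CD8+ cells, with a called difference for Ccr4 alone. NF-kB genes rose for 6 of 12 in CD4+ (3 without L-gp130 CD4 replicate 1 and control CD4 replicate 5) and 3 in CD8+ cells, with 0 called differences. Killer lectin receptors went both ways, with 3 rises and 5 falls among 18 in CD4+ cells and 2 and 2 in CD8+ cells, and 1 called difference (6 without those 2 libraries). ER chaperones rose for 14 of 16 in CD4+ and 5 in CD8+ cells. The CD8 count was 11 without L-gp130 CD4 replicate 1, alone or with control CD4 replicate 5, and 3 with control CD8 replicates 1 to 3 alone.

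Single genes of metabolism and survival moved alike in both lineages. Elovl6, a fatty acid elongase, rose by 1.41 ± 0.10 and 1.24 ± 0.11 in CD4+ and CD8+ cells, beside the lineage difference of its relative Elovl7 (-1.83 ± 0.36). Psat1, an enzyme of serine synthesis, rose by 0.92 ± 0.10 and 0.90 ± 0.11, and Hspd1, a mitochondrial chaperone, by 0.60 ± 0.09 and 0.60 ± 0.10. Bmf, a death-promoting member of the BCL2 family, had effects of -0.95 ± 0.14 and -0.85 ± 0.17.

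Plasma cell genes, for which neither lineage was selected, summed to 194 to 306 CPM (median 263) in control CD4, 380.5 to 1089 CPM (median 595) in L-gp130 CD4, 147 to 592 CPM (median 395) in control CD8 and 437 to 2597 CPM (median 1105) in L-gp130 CD8 libraries. B cell genes summed to 309 to 1115 CPM (median 703), 301 to 715 CPM (median 378), 99.4 to 169 CPM (median 123) and 112.5 to 129 CPM (median 114) in the same order.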
